A study of Homo sapiens with 19 samples.

Results

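The interferon-stimulated genes ISG15, IFI6, IFI27, IFIT1, IFIT3, MX1 and BST2 were followed in human liver organoids across every culture condition of the series. They were a list of names chosen with earlier results of these data known. Shares of all genes set beside their counts are therefore descriptions and not tests of the list. The names were matched by Ensembl identifier, and all 7 of 7 were found among the 32703 genes listed in every count matrix. Levels are given as CPM, the UMIs (unique molecular identifiers, 1 per captured transcript) of a gene in the kept cells of a library divided by all UMIs counted there and expressed as counts per 1e6. A cell was kept if it showed 500 genes or more and if no more than 20% of its UMIs were mitochondrial.

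The organoids were derived from W01, an established human pluripotent stem cell line supplied by WiCell, of wild-type genotype, so every group comes from 1 genetic background. The 19 droplet single-cell libraries fell into 9 groups. Organoids on ultra-low attachment (ULA) plates were untreated and taken on day 21 (n = 3) or day 34 (n = 2). Organoids on an orbital shaker (OS) were taken on day 25 in 7 groups of 2 libraries: untreated, TGFB1 (transforming growth factor β1, 10 ng/ml), PA (500 µM), OA (500 µM), and a separate control for each of these agents. PA and OA are not spelled out in the labels and are kept as they stand. Treatment with TGFB1 or PA lasted 5 days after 20 days of culture, while the protocol text does not mention OA. Day 34 ULA and all OS organoids were trypsinized for 10 minutes longer than day 21 ULA organoids. Nothing in the labels says whether libraries of a group came from separate cultures, so p-values measure the spread between these libraries, which may be technical.

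Type I and type III interferons are secreted proteins that bind receptors on neighbouring cells and activate the kinases JAK1 and TYK2. Their signal leads to assembly of the factor ISGF3, which binds the interferon-stimulated response element in the promoters of its targets. Many of the induced proteins restrict viruses. In liver, hepatocytes and non-parenchymal cells both mount this response, and interferon-stimulated genes can also be held at a low tonic level without infection. ISG15 encodes a ubiquitin-like protein that is attached to other proteins. IFI6 and IFI27 encode small membrane proteins of mitochondria and the endoplasmic reticulum. IFIT1 encodes a protein that binds RNA lacking the host cap modification and IFIT3 its partner, MX1 a dynamin-like GTPase that blocks viral ribonucleoproteins, and BST2 (tetherin) a membrane protein that holds enveloped virions at the cell surface.

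Promoter windows are shown because the response element is the sequence these genes are known for. RefSeq windows (GRCh38.p14) from 250 bases before to 50 bases after each start were searched for GAAANNGAAA on both strands. All 7 genes were matched to the table, with 11 start sites between them, and each of the 7 had at least 1 start site whose window held the motif. Over all promoters the share was 3.57% (1255 of 35116), and over all genes it was 4.38%. Of the other interferon-stimulated genes listed below, 18 of the 28 found in the table held it. Capitals mark the motif, read as TTTCNNTTTC where it lies on the opposite strand, and overlapping matches run together. Each line is written 5′ to 3′ on the gene's own strand.
ISG15, plus strand, chr1:1013352-1013431: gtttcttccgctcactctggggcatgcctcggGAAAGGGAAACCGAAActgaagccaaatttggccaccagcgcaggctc
IFI6, minus strand, chr1:27672273-27672351: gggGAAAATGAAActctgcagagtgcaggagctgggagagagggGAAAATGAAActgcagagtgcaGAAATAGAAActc
IFIT1, plus strand, chr10:89392479-89392557: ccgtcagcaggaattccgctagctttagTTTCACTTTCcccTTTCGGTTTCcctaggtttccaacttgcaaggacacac
IFIT3, plus strand, chr10:89332422-89332500: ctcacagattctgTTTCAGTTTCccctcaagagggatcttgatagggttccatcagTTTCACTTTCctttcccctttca
IFI27, plus strand, chr14:94110600-94110678: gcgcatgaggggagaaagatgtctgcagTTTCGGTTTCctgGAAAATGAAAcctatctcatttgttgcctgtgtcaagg
BST2, minus strand, chr19:17405713-17405792: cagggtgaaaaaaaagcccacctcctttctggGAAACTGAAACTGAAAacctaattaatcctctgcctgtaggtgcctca
MX1, plus strand, chr21:41420559-41420588: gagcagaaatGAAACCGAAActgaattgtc

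ISG15 and BST2 each held a pair of matches that overlap, the first beginning 113 and 130 bases before the start. IFI6 held 3 separate matches, from 156 to 93 bases before its start. The IFIT1 matches lay 116 and 103 bases before its start, and the IFI27 matches 108 and 95 bases before one of its 2 starts. The MX1 match shown began 11 bases after one of its 3 starts, so only 30 bases are printed. A match describes these letters and does not show that a factor bound there. The genes themselves lie on chromosome 1 (ISG15 at 1001138 to 1014540 and IFI6 at 27666064 to 27672212), chromosome 10 (IFIT3 at 89327307 to 89377473 and IFIT1 at 89392546 to 89406487), chromosome 14 (IFI27 at 94104836 to 94116695), chromosome 19 (BST2 at 17402939 to 17405630) and chromosome 21 (MX1 at 41420020 to 41470071) in GENCODE v44 (GRCh38). The libraries were read at the 3′ end of transcripts, so they do not report which start was used.

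In all, 120240 cells were kept, 3089 to 12427 per library, with 6878407 to 88512435 UMIs per library over the shared genes. The median depth per kept cell ran from 1310 to 14304.5 UMIs, and TGFB1 control replicate 1 and PA control replicate 1 were the shallowest. Any pair of libraries shared 2 to 43 cell barcodes (median 13). Hepatocyte markers were detected in every group, with a summed level from 83.8 CPM in a day 34 ULA library to 22632 CPM in a PA library. Of 11 immune markers, PTPRC, the pan-leukocyte phosphatase, was at 0 in 7 libraries and at most 0.137 CPM, and C1QA of macrophages was at 0 in all 19. Others of the list were detected. AIF1 was found in all 19 libraries (2449 UMIs, at most 10.7 CPM), CSF1R, a receptor of macrophages, also in all 19 (380 UMIs, at most 0.863 CPM), and TYROBP was at 0 in 8 and at most 2.08 CPM. CD68, which is not limited to immune cells, reached 82.3 CPM with OA. The summed level of the 11 ran from 3.4 to 23.6 CPM in the other groups and from 73.3 to 84.2 with OA.

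The ligands, the first step of the pathway, were almost absent. Of 21 interferon genes, 9 had 0 UMIs in every library, IFNB1 among them, which allows at most 0.00306 CPM over the series (3 UMIs of 979357795, counting error only). Another 9 had 1 to 5 UMIs in all, including IFNG with 1, IFNL1 with 2, IFNL2 with 3 and IFNL3 with 1. IFNA13, IFNA5, IFNA8, IFNA10 and IFNA17 were the others, with 3, 1, 1, 1 and 1 UMIs, and reads of these near-identical genes cannot be assigned with certainty. IFNA2 and IFNK had 7 UMIs each. IFNE, an interferon constitutively made by some epithelia, was the exception with 313 UMIs in 18 of 19 libraries. It lay at 0.230 ± 0.041 CPM on day 21 (SD, n = 3) and 0.790 ± 0.464 on day 34 (SD, n = 2) in ULA organoids, higher by 1.66 as log2 (SE 0.449, edgeR adjusted p 0.0445). In the OS comparisons IFNE did not pass the test. Absence of a ligand's mRNA from these cells at harvest does not bear on ligand present earlier or in the medium, which was not measured.

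The 7 genes did not follow a single order of conditions. The OA, OA control and untreated matrices came from a later Cell Ranger version than the others. They listed 36601 genes, the ULA matrices 58721, and those of the TGFB1 and PA experiments 33538. The part of these differences in the order and in the correlations over groups was not tested. ISG15 was highest with TGFB1 (157 ± 42 CPM, SD, n = 2), followed by PA (129 ± 2) and ULA day 34 (120 ± 35), and the ranges of these 3 groups ran into each other. Below them, without overlap, stood the PA control (79.8 ± 6.6), and then the other 5 groups between 39.9 and 54.8 CPM. IFI6 was highest with PA (422 ± 104) and then in the PA control (222 ± 23), each clear of every group below it. TGFB1 followed (84.8 ± 26.4), clear of the OA control next in order but not of untreated OS organoids. There replicate 2 measured 70.9 CPM, against 66.1 in TGFB1 replicate 2. IFI6 was lowest in ULA day 21 organoids (11.5 ± 1.6, n = 3).
IFIT1, IFIT3 and MX1 were also highest with PA, at 7.27 ± 2.20, 7.74 ± 0.58 and 14.4 ± 2.1 CPM. Only for MX1 did the PA libraries stand above those of the group next in order. IFI27 was highest with OA (8.16 ± 2.68) and lowest in the PA control, where replicate 1 held a single UMI. BST2 was highest in untreated OS organoids (20.5 ± 5.9) and the OA control (20.2 ± 5.3), and lowest with OA (0.331 ± 0.102), clear of every other group. Across the 9 group means of log2(CPM + 1), IFIT1 and IFIT3, neighbours on chromosome 10, were the most alike pair (Pearson r 0.96, 9 groups that share organoid line and assay). The next was IFI6 with MX1 (0.74), while BST2 with IFI27 had the lowest value (-0.35). These correlations are descriptions.

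**Figure D1:**
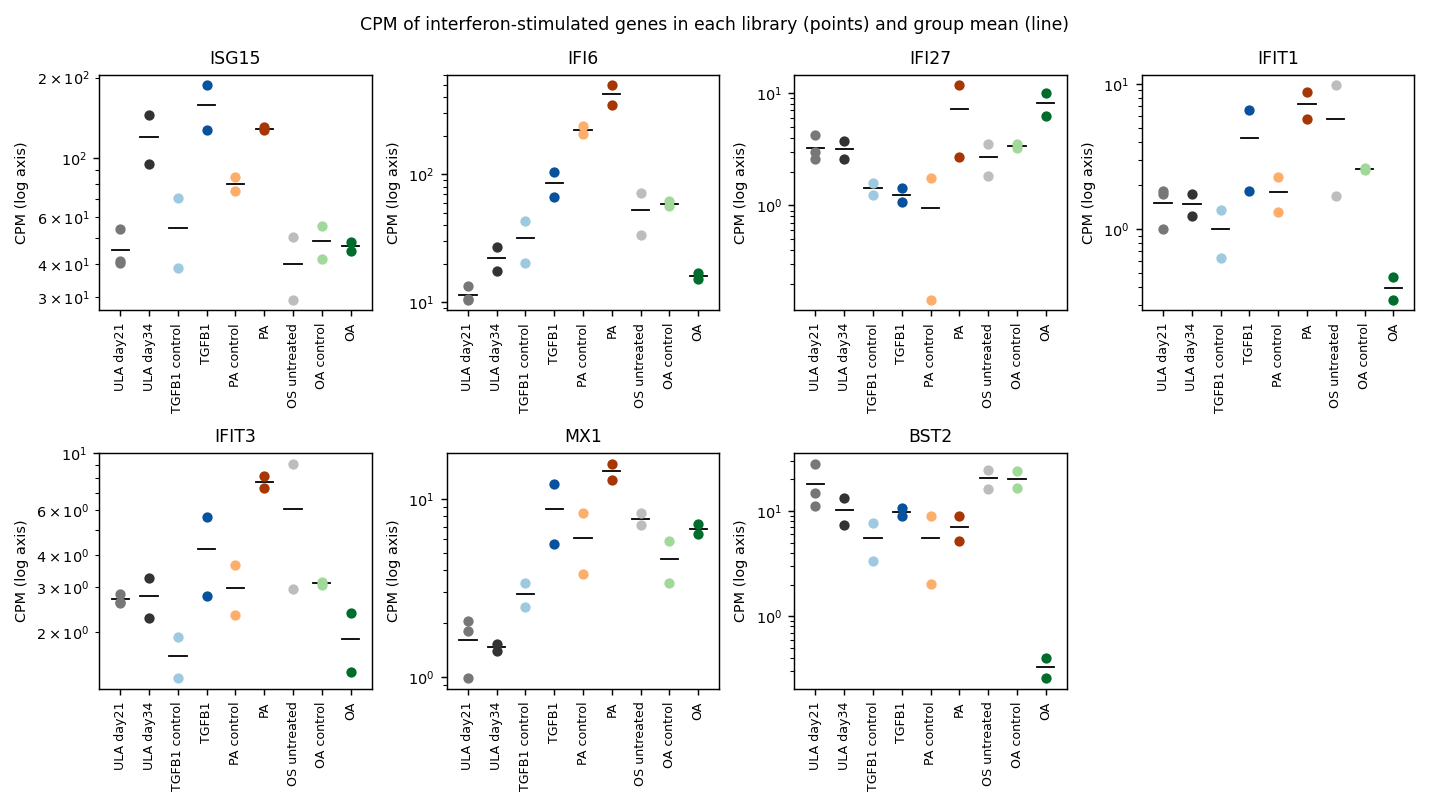
CPM of each of the 7 genes (log vertical axis, a separate scale per gene) in the 9 groups, with 1 point per library and a line at the group mean. ISG15 stands highest with TGFB1, IFI6 and MX1 with PA, and BST2 drops to 0.331 CPM with OA.

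The study set out to model inflammatory and fibrotic injury of fatty liver disease, and TGFB1, a fibrogenic cytokine, was one of its agents. ISG15, IFI6, IFIT1, IFIT3 and MX1, 5 of the 7 genes, rose with TGFB1 against its own control (edgeR quasi-likelihood test, Benjamini-Hochberg adjusted p under 0.05), where 22.1% of all genes tested were called in either direction. In CPM, 6 of the 7 genes were higher in every TGFB1 library than in every control library, against 23.7% of all genes. The median log2 fold change of the 7 was 1.58, and that of all genes was -0.05.

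ISG15 measured 187 and 128 CPM in TGFB1 replicates 1 and 2, and 38.8 and 70.7 in the control. The groups did not overlap, and the log2 ratio was 1.69 (SE 0.318, edgeR adjusted p 0.00232). IFI6 measured 103 and 66.1 CPM with TGFB1 and 20.3 and 42.9 in the control, also without overlap, a change of 1.58 (SE 0.423, edgeR adjusted p 0.0179). MX1 measured 12.1 and 5.59 CPM against 2.47 and 3.37, a change of 1.75 (SE 0.422, edgeR adjusted p 0.0104). IFIT1 measured 6.59 and 1.84 CPM against 0.633 and 1.36, a change of 2.14 (SE 0.719, edgeR adjusted p 0.049). IFIT3 measured 5.63 and 2.78 CPM against 1.33 and 1.91, a change of 1.51 (SE 0.485, edgeR adjusted p 0.0411). For all 5 genes, TGFB1 replicate 1 was the higher of the treated libraries and control replicate 1, the shallow one, the lower of the controls. IFI27 did not separate the groups, at 1.07 and 1.43 CPM with TGFB1 and 1.58 and 1.24 in the control (log2 fold change 0.04, edgeR adjusted p 0.981, and -0.15 with total counts in place of the TMM scaling, which moved the median of all genes by -0.19). BST2 measured 10.7 and 8.90 CPM against 3.35 and 7.69, without overlap but not past the test (0.95, SE 0.490, edgeR adjusted p 0.184).

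ISG15 passed in each of the 10 alternatives run, with a log2 fold change from 1.25 without control replicate 1 to 2.33 without control replicate 2. Without control replicate 2, IFI6 lay at 2.37, IFIT1 at 3.05, IFIT3 at 1.97 and MX1 at 2.16, above their values with every library. Without TGFB1 replicate 1, IFI6 was at 1.21, MX1 at 1.08, IFIT1 at 0.94 and IFIT3 at 0.90 (edgeR adjusted p 0.157, 0.162, 0.504 and 0.358), and without control replicate 1 none of these 4 passed either (edgeR adjusted p 0.097 to 0.261), while without control replicate 2 BST2 passed (1.86, edgeR adjusted p 0.0405), as it did with no low-count filter (0.96, edgeR adjusted p 0.00427), and IFIT1 and IFIT3 did not (adjusted p 0.0651 and 0.0523). IFIT1 was also not called with total counts, with a stricter cell filter (1000 genes and 10% mitochondrial counts) or in a fit of only the 2 groups (1.98 to 2.13, edgeR adjusted p 0.0578 to 0.0744), nor was IFIT3 with total counts or in that fit (1.34 and 1.51, edgeR adjusted p 0.0604 and 0.0567). IFI6 lost its call in the same fit (1.58, edgeR adjusted p 0.0536). Over the 10 alternatives run, IFIT1 was called in 3 and IFIT3 in 4.

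Markers of cell types moved too. With TGFB1 the summed mesenchymal markers were at 1470 to 1818 CPM against 593 to 605 in the control (3 of 6 rose). Of 8 hepatocyte markers 5 fell and 1 rose, while their summed level was 4543 to 5392 CPM against 2633 to 3943 in the control. The immune marker CSF1R held 8 UMIs in the control and 65 with TGFB1. With so few in the control it could pass the low-count filter only through other groups, so its call is not taken as support. The 11 immune markers summed to 6.84 to 8.90 CPM with TGFB1 and 8.35 to 11.2 in the control. The part of these shifts in the result was not tested in whole libraries, and values within compartments follow below.

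Among 76 other genes of the pathway, from lists of receptors, signalling proteins, regulatory factors, sensors, feedback inhibitors, ISG15-conjugating enzymes and further targets, 71 were tested with TGFB1. Of these, 12 rose and 3 fell, 15 of 71 in a comparison where 22.1% of all genes were called, so the count is near the background. The further interferon-stimulated genes held 4 of 34 that rose and none that fell at an adjusted p under 0.05, a smaller share than that background, with a median log2 fold change of 0.20. EPSTI1 rose by 3.17 (SE 0.405, edgeR adjusted p 0.000122), RTP4 by 2.21, IFI44L by 2.19 and ISG20, an exonuclease, by 1.58. JAK1, the kinase shared by interferon receptors, rose by 1.70 (SE 0.293, edgeR adjusted p 0.00123), and the receptor subunits IFNAR1, IFNAR2 and IFNGR2, named here after their values were seen, rose by 0.89, 0.81 and 0.80. Among those that fell were the receptor subunit IL10RB (-1.43, SE 0.461, edgeR adjusted p 0.0417) and the inhibitor SOCS3 (-1.35, SE 0.282, edgeR adjusted p 0.00452). USP18, the protease that removes ISG15 and also named after its value was seen, was not called (0.70, edgeR adjusted p 0.0697).

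**Figure D2:**
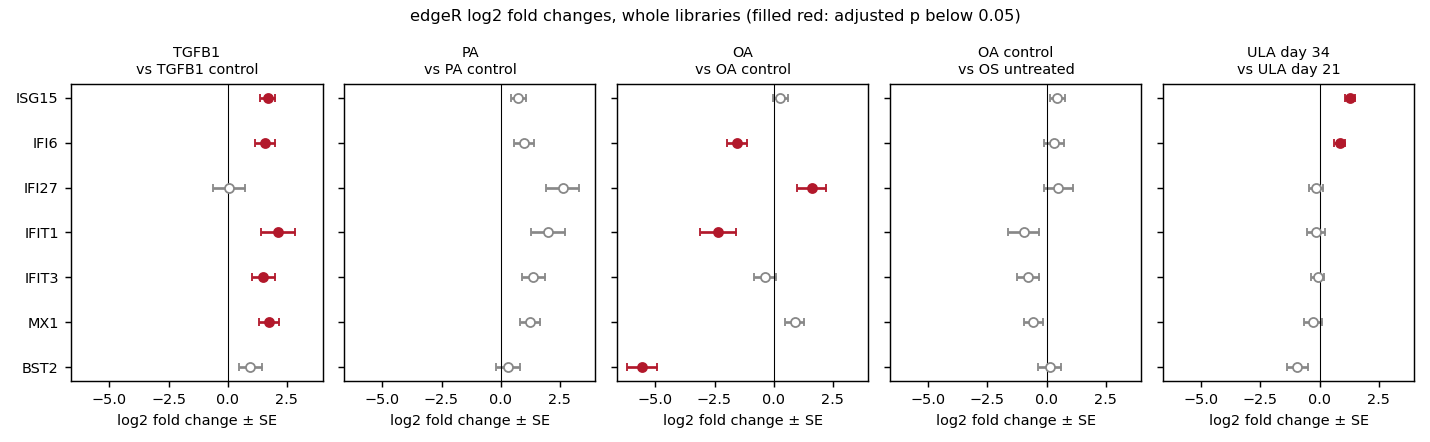
edgeR log2 fold changes of the 7 genes in each whole-library comparison, with bars of 1 standard error and filled red points where the adjusted p was under 0.05. The plot has 5 filled genes with TGFB1, none with PA, 4 with OA, none between the OA control and untreated organoids, and 2 between ULA day 34 and day 21.

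PA was the other agent named in the study's design. All 7 genes had a positive log2 fold change, but none was called by edgeR in a comparison where only 0.0465% of all genes were (9 genes, all higher). At an unadjusted p under 0.05, 6 of 7 genes were higher against 1.76% of all genes, and in CPM 6 of 7 were higher in every PA library than in every control library against 8.38% of all genes. DESeq2 called 1 of the 7, IFI27, and 0.279% of all genes. The median log2 fold change was 1.24 for the 7 genes and 0.02 for all.

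IFI6 measured 495 and 348 CPM with PA and 206 and 238 in the control, a change of 0.98 on the log2 scale (SE 0.415, unadjusted edgeR p 0.034 across all genes, adjusted p 1). IFIT1 measured 5.71 and 8.83 CPM against 1.31 and 2.27 (log2 fold change 1.99, SE 0.721, adjusted p 1). IFIT3 measured 8.15 and 7.33 CPM against 2.33 and 3.64 (1.38, SE 0.483, adjusted p 1). In each of these 3 genes both PA libraries lay above both controls, while the fit across all genes gave no call. MX1 measured 12.9 and 15.9 CPM against 3.78 and 8.35 (1.24, SE 0.414, adjusted p 1), and ISG15 127 and 130 CPM against 75.2 and 84.4 (0.75, SE 0.313, adjusted p 1). IFI27 measured 2.69 and 11.7 CPM against 0.145 and 1.77, with the widest spread within groups (2.61, SE 0.686, adjusted p 0.56 with edgeR and 0.012 with DESeq2). It rested on few cells. In PA replicate 2, 51.7% of its 681 UMIs lay in 10 of 8249 cells, and in PA replicate 1 40.6% of 64 in 10 of 7663. BST2 overlapped, at 5.17 and 8.97 CPM with PA and 2.04 and 9.05 in the control (0.30, adjusted p 1). Leaving out 1 library at a time moved 3 of these values widely. IFI27 lay at 1.16 without PA replicate 2 and 5.63 without control replicate 2, and MX1 at 0.91 without control replicate 1 and 1.94 without control replicate 2. BST2 turned negative without control replicate 1 (-0.22) or PA replicate 2 (-0.17) and was at 1.81 without control replicate 2, and none of these values was called.

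With no filter on low counts edgeR called 162 genes rather than 9 with PA, and 5 of the 7 genes were among those past the threshold: IFIT1 (adjusted p 1.32e-05), IFI27 (3.51e-10), MX1 (0.00512), IFIT3 (0.00997) and IFI6 (0.0271). Their fold changes were nearly the same as with the filter, at 2.00, 2.62, 1.25, 1.38 and 0.99 on the log2 scale.

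Of the 71 other pathway genes tested with PA, edgeR called 0 in either direction. At an unadjusted p under 0.05 there were 13, all higher, and DESeq2 called 1, CXCL10, a chemokine induced by interferon-γ, named after its value was seen. The further interferon-stimulated genes had a positive log2 fold change in 31 of 34 cases and a median of 0.39, against 0.02 for all genes. Of the markers, edgeR called 0 of 8 hepatocyte and 0 of 6 mesenchymal genes. All 6 mesenchymal markers had a negative log2 fold change (median -0.53), with a summed level of 185 to 430 CPM with PA and 363 to 607 in the control, and the part of this in the result was not tested.

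With OA the genes split. IFI6, IFIT1 and BST2 fell and IFI27 rose (4 of 7 called, against 43.3% of all genes), so the count is close to what the comparison gave for genes in general. BST2 had the lowest log2 fold change of the 7, at 0.260 and 0.403 CPM with OA and 16.4 and 23.9 in the control, and the groups stood apart. Its log2 fold change was -5.57 (SE 0.624), with an edgeR adjusted p of 2.16e-05, and the call held in each alternative run. IFI6 measured 16.9 and 15.3 CPM with OA and 62.0 and 56.1 in the control (-1.54, SE 0.423, edgeR adjusted p 0.0103). IFIT1 measured 0.464 and 0.326 CPM, or 25 and 17 UMIs, against 2.63 and 2.56 (-2.37, SE 0.754, edgeR adjusted p 0.022). IFI27 measured 10.0 and 6.26 CPM against 3.54 and 3.22 (1.61, SE 0.603, edgeR adjusted p 0.0456). Of its UMIs, 28.0% and 34.0% lay in 10 cells with OA, and 57.9% and 54.4% in the control. The remaining genes were not called. ISG15 measured 48.6 and 44.6 CPM against 41.7 and 55.8 (0.29, adjusted p 0.487), IFIT3 2.37 and 1.40 against 3.15 and 3.07 (-0.38, adjusted p 0.543), and MX1 7.29 and 6.36 against 5.81 and 3.38 (0.89, adjusted p 0.0919). With total counts in place of TMM scaling the median of all genes moved by -0.34 in this comparison, and ISG15 then read -0.06. IFIT1 lost its call without any 1 of the 4 libraries (edgeR adjusted p 0.0534 to 0.121, log2 fold change -2.13 to -2.66), as did IFI27 (0.0551 to 0.236, 1.21 to 1.92). IFI27 was also not called with total counts (1.27, edgeR adjusted p 0.0936) or the stricter cell filter (1.39, edgeR adjusted p 0.0633), and kept its call in 4 of 10 alternatives. MX1 passed without OA control replicate 1 (1.43, edgeR adjusted p 0.0393) and with no low-count filter (0.88, edgeR adjusted p 0.00781). IFI6 lost its own without OA control replicate 1 or either OA library (edgeR adjusted p 0.05 to 0.0682, -1.38 to -1.63).

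The make-up of the organoids moved with BST2. Of 8 hepatocyte markers 6 rose with OA, and all 6 mesenchymal markers fell (median log2 fold change -5.13), and their summed level was 98.5 to 126 CPM with OA against 2364 to 3914 in the control. Cells with a COL1A2 or COL3A1 UMI and no EPCAM UMI made up 1.94% and 1.18% of OA libraries and 35.3% and 37.5% of control libraries. In these sums over whole libraries, fewer cells of a type and less RNA per cell cannot be told apart, and that holds for every whole-library comparison here.

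The pathway lists moved in both directions with OA, with 31 higher and 14 lower of 71 tested, where 43.3% of all genes were called in either direction. All 6 receptor genes rose, led by IFNGR1, a subunit of the interferon-γ receptor, from 65.6 ± 11.9 to 374 ± 28 CPM (SD, n = 2, log2 fold change 2.84, SE 0.327, edgeR adjusted p 2.6e-05). Of the ISG15-conjugation genes 3 of 4 fell, and of the feedback inhibitors 2 of 3. USP18, which is on both lists, fell by 1.47 on the log2 scale. Of the further interferon-stimulated genes, 14 of 34 rose and 9 fell. ISG20 rose by 4.29 (SE 0.463), SAMD9L by 4.13 (SE 0.474), OAS1, a sensor of double-stranded RNA, by 3.19 (SE 0.501) and OASL by 2.97 (SE 0.755), with edgeR adjusted p 1.67e-05, 2.55e-05, 0.000252 and 0.00746. Others fell. TMEM173, which encodes the DNA-sensing adaptor STING, fell by 4.54, XAF1 by 2.67 and IFI16 by 2.51 (edgeR adjusted p 2.43e-05, 0.0492 and 5.35e-05). IFI44L lay at 5.39 ± 0.77 CPM in the control and 0.057 ± 0.028 with OA (fitted log2 fold change -6.17). At that level with OA it could pass the low-count filter only through other groups, so its call is not taken as support. IFI44 had 259 UMIs in the control libraries and 1 with OA, a ratio of 254 (95% counting interval 45.2 to 10079) of the control to OA. Interferon-stimulated genes of the same textbook class were thus found on both sides.

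**Figure D3:**
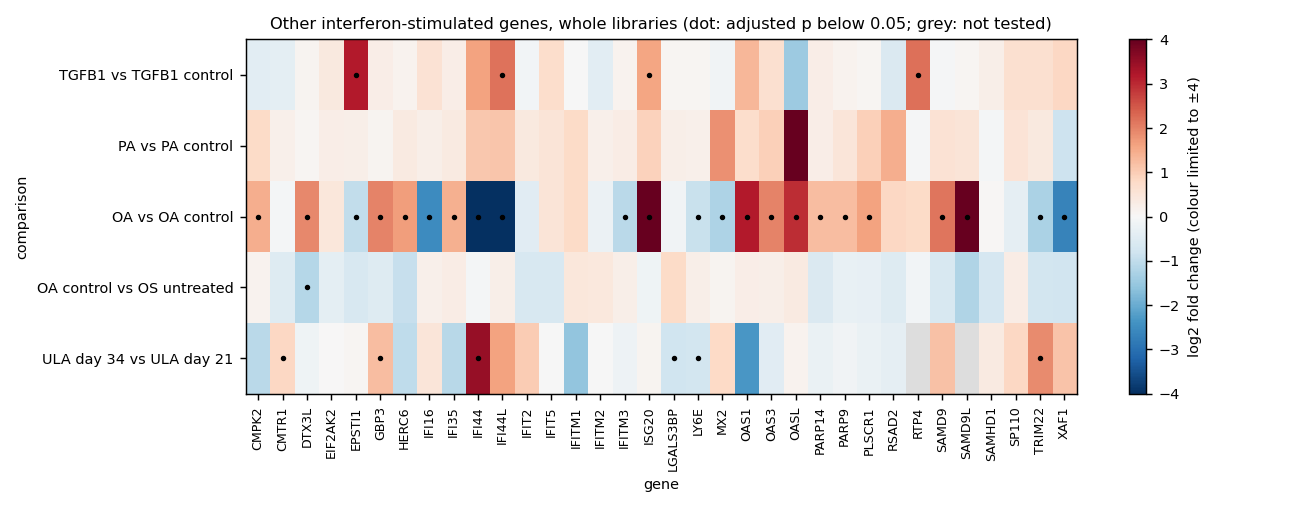
Log2 fold changes of 34 other interferon-stimulated genes (columns) in the 5 whole-library comparisons (rows), from blue (lower) to red (higher), with a dot where the edgeR adjusted p was under 0.05 and grey where a gene was not tested. With TGFB1 the 4 dots are all on red cells, with PA there is none, and with OA there are 14 on red and 9 on blue cells.

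OA control and untreated OS organoids were the only OS groups without an agent that were tested against each other. None of the 7 genes was called by edgeR, where 0.444% of all genes were, 0 of 7 had an unadjusted p under 0.05 (14.5% of all genes), and DESeq2 called 0 of 7 (3.63% of all genes). The log2 fold changes ran from -0.97 for IFIT1 to 0.50 for IFI27. Untreated replicate 1 nevertheless held 9.78 CPM of IFIT1 and 9.10 of IFIT3, and replicate 2 held 1.70 and 2.95, so 1 untreated library exceeded both PA libraries in both genes, and the spread within this group was as wide as the difference between PA and its control. A single pathway gene, DTX3L, was called and lower in the OA control (-1.15, edgeR adjusted p 0.0362), with 1 higher and 4 lower by DESeq2. The controls of the other experiments stood apart in IFI6, at 206 and 238 CPM for PA and 20.3 and 42.9 for TGFB1. ISG15, IFIT3 and MX1 were also higher in both PA control libraries, while IFI27, IFIT1 and BST2 overlapped. These 2 controls were not tested against each other.

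In ULA organoids, ISG15 and IFI6 were higher on day 34 than on day 21 (2 of 7 called, against 17.4% of all genes). ISG15 measured 53.9, 41.2 and 40.4 CPM on day 21 and 95.2 and 145 on day 34, with no overlap (1.29, SE 0.218, edgeR adjusted p 0.00982). IFI6 measured 10.6, 13.3 and 10.5 CPM and then 17.7 and 27.0 (0.84, SE 0.221, edgeR adjusted p 0.0412). The other genes overlapped or were not called. IFIT1 ranged from 1.01 to 1.82 CPM on day 21 and measured 1.74 and 1.23 on day 34, IFIT3 from 2.60 to 2.83 and then 3.26 and 2.27, and MX1 from 0.986 to 2.06 and then 1.40 and 1.53. BST2 measured 14.8, 28.3 and 11.1 CPM and then 13.2 and 7.32 (-0.94, adjusted p 0.209). Culture time and the longer trypsin step differ together between these groups, and their parts cannot be told apart. ISG15 lost its call without day 21 replicate 3 (edgeR adjusted p 0.0694), and IFI6 without any 1 day 21 library or day 34 replicate 2 (edgeR adjusted p 0.0749 to 0.157, and log2 fold change 0.50 without day 34 replicate 2). IFI6 was also not called with the stricter cell filter (0.72, edgeR adjusted p 0.067), and was called in 5 of 11 alternatives.

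Markers of hepatocytes moved with these genes. All 8 had a negative log2 fold change on day 34 and 3 were called (median -3.67), and their summed level was 2058 to 2281 CPM on day 21 and 83.8 to 772 on day 34. Of 6 mesenchymal markers 0 were called, with a median of 0.72. Cells with an EPCAM UMI and no COL1A2 or COL3A1 UMI made up 11.7% to 18.8% of day 21 libraries and 0.532% and 6.01% of day 34 libraries. Within cells with a collagen UMI and none of EPCAM, IFI6 had a log2 fold change of 0.07 and ISG15 of 0.77 (edgeR adjusted p 0.778 and 0.0184). In cells with an EPCAM UMI and no collagen UMI, IFI6 measured 2.78, 4.50 and 3.78 CPM on day 21. On day 34 it measured 15.8 (4 UMIs) and 35.9 (164 UMIs). ISG15 measured 48.8, 27.8 and 34.4 CPM there on day 21, and 142 (36 UMIs) and 209 on day 34. Day 34 replicate 1 held only 23 such cells, so no test was made in them. The part of the shift in cell types in the whole-library values of ISG15 and IFI6 was not tested.

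Of 67 other pathway genes tested in ULA organoids, 9 were higher and 2 lower on day 34, or 11 of 67 where 17.4% of all genes were called, so this count too is near the background. GBP1 and GBP2, guanylate-binding proteins induced by interferon-γ, rose by 3.69 (SE 0.345) and 2.01 (SE 0.260), GBP1 from 2.66 ± 0.64 CPM (SD, n = 3) to 37.4 ± 17.7 (n = 2). IFI44 rose by 3.48, TMEM173 by 3.18 and TRIM22 by 1.88 (edgeR adjusted p 0.00555, 0.00693 and 0.00887). LGALS3BP and LY6E were lower, at -0.81 and -0.75.

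Cells were then divided by their own transcripts. Epithelial cells were those with at least 1 UMI of EPCAM, the epithelial adhesion molecule, and none of COL1A2 or COL3A1, fibrillar collagen genes. Mesenchymal cells, called COL-positive here, were those with at least 1 collagen UMI and none of EPCAM. Cells with both, 1.93% to 32.0% of OS and 29.8% to 59.7% of ULA libraries, or with neither were left out. No doublet caller was run, and whether free RNA or doublets gave the cells with both was not tested. Summed hepatocyte markers ran from 2844 to 25690 CPM in EPCAM-positive cells and from 12.8 to 2364 in COL-positive cells, while mesenchymal markers ran from 13.2 to 409 and from 2813 to 13509 CPM. Libraries with fewer than 50 such cells were set aside. OA replicate 2 held 38 COL-positive cells and day 34 ULA replicate 1 held 23 EPCAM-positive cells, which left 13 OS and 4 ULA libraries in which the compartments could be compared within a library.

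In OS organoids, 3 genes were higher in COL-positive cells and 2 in EPCAM-positive cells (58.1% of all genes called). BST2 was the clearest. Its level in COL-positive cells had a lowest, median and highest value of 2.83, 63.2 and 84.7 CPM, and in EPCAM-positive cells 0.240, 1.81 and 4.42, and it was higher in COL-positive cells of 13 of 13 libraries (log2 fold change 4.98, SE 0.269, edgeR adjusted p 3.52e-10). The lowest COL-positive value, in OA replicate 1, rests on 1 UMI. IFIT3 was also higher in 13 of 13 libraries, with 2.83, 6.88 and 57.5 CPM against 0.898, 2.48 and 7.38 (1.56, SE 0.260, edgeR adjusted p 5.22e-05). Its lowest COL-positive value, again in OA replicate 1, also rests on 1 UMI and stood against 2.48 CPM in EPCAM-positive cells. Replicate 1 of the TGFB1 control and of the PA control held 4 COL-positive UMIs each. IFIT1 was higher in 10 of 13, with 1.01, 4.09 and 31.3 CPM against 0.334, 1.42 and 8.22 (1.16, SE 0.389, edgeR adjusted p 0.0176). MX1 and IFI6 ran the other way. MX1 was lower in COL-positive cells of 12 of 13 libraries, with 0, 2.98 and 34.3 CPM against 2.78, 7.36 and 16.2 (-1.10, SE 0.300, edgeR adjusted p 0.00462), and IFI6 in 11 of 13, with 12.1, 39.1 and 248 against 17.0, 59.0 and 523 (-1.02, SE 0.232, edgeR adjusted p 0.00138). ISG15 (-0.27, adjusted p 0.172) and IFI27 (0.63, adjusted p 0.0883) were not called. When cells were placed on the side with more UMIs, IFI6 lost its call (-0.45, adjusted p 0.145), and without OA replicate 1 IFI27 passed (0.82, edgeR adjusted p 0.00795).

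In ULA organoids, 4 genes were called higher and 1 lower in COL-positive cells (55.4% of all genes called). IFIT1 is among the 4, with a limit given next. IFIT1 held 51, 85, 81 and 32 UMIs in COL-positive cells of day 21 replicates 1 to 3 and day 34 replicate 2, and 4, 5, 1 and 0 in EPCAM-positive cells. That is 1.59 to 3.96 CPM against 0 to 0.388 (edgeR adjusted p 0.00273). With so few UMIs on the EPCAM-positive side IFIT1 could pass the filter on low counts only through the other side, so its call is not taken as support. Its fitted log2 fold change of 3.93 (SE 0.556) ranged from 2.51 to 4.56 over 8 alternatives. IFIT3 lay at 5.30 to 8.46 CPM against 0.465 to 1.31 (2.96, SE 0.274, edgeR adjusted p 0.000738), and BST2 at 10.1 to 52.6 against 1.11 to 5.90 (3.85, SE 0.793, edgeR adjusted p 0.0123). IFI27 was higher by 0.73 (edgeR adjusted p 0.0407). MX1 was again lower, at 0.532 to 1.19 CPM against 2.17 to 4.33 (-2.25, SE 0.373, edgeR adjusted p 0.00447). IFIT3 and MX1 passed with every library left out in turn. BST2 lost its call without any 1 of the day 21 libraries (3.47 to 3.51, edgeR adjusted p 0.059 to 0.0628), as did IFI27 (0.70 to 0.91, edgeR adjusted p 0.0527 to 0.151), which also missed the threshold with no low-count filter (adjusted p 0.0519) and with a limit of 2 UMIs per compartment marker (adjusted p 0.051). IFI6 had a log2 fold change of 1.52 (adjusted p 0.0835), opposite in sign to OS organoids, and passed without day 34 replicate 2 (2.20, adjusted p 8.35e-11), as ISG15 then did (0.52, adjusted p 0.000305). The immune markers AIF1 and TYROBP, named after their values were seen, were also higher in ULA COL-positive cells, and their part was not tested. AIF1 was higher by 3.03 (edgeR adjusted p 0.00136). TYROBP held only 398 UMIs over all libraries and was at 0 in 8, so the size of its difference is not given. Whether the compartments differ between OS and ULA organoids was not tested.

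**Figure D4:**
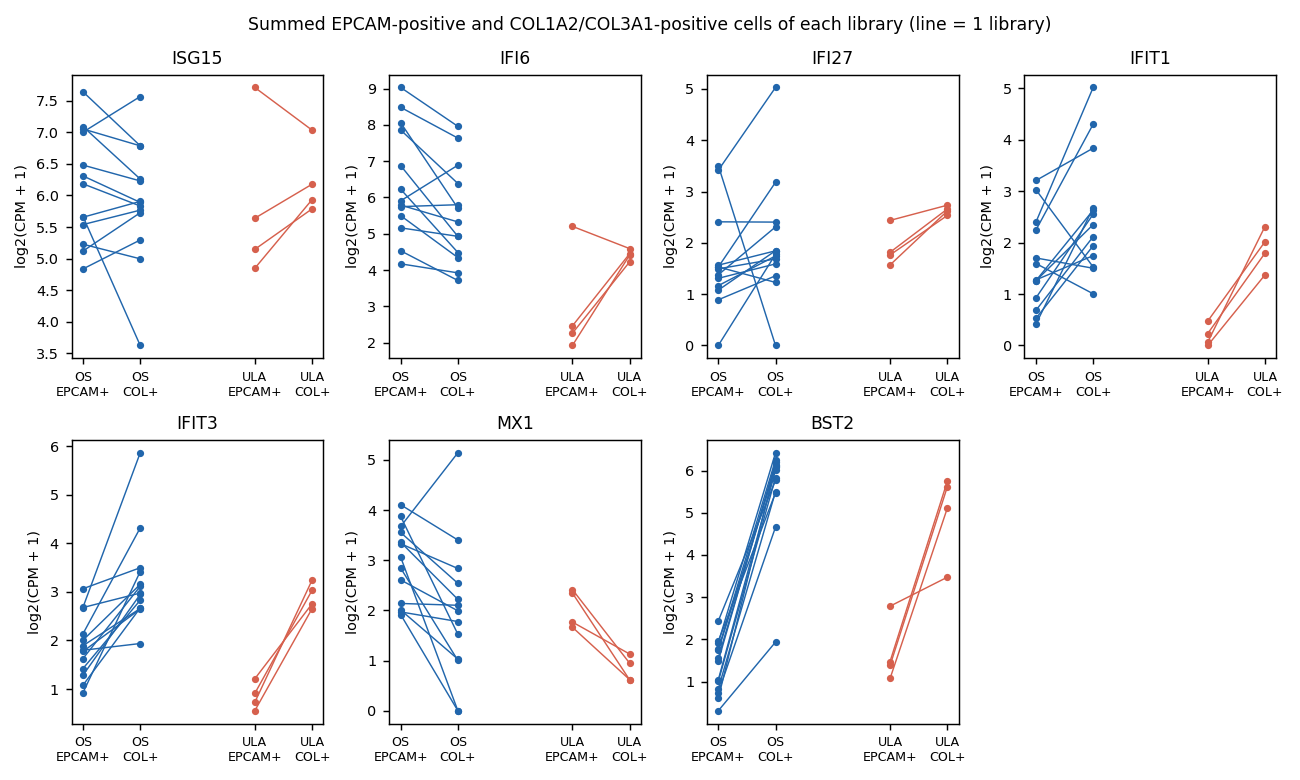
Log2(CPM + 1) of the 7 genes in EPCAM-positive (EPCAM+) and COL1A2/COL3A1-positive (COL+) cells, with a line joining the sums of 1 library, in blue for 13 OS and in red for 4 ULA libraries. BST2 and IFIT3 rise from EPCAM+ to COL+ in every library, and MX1 falls in 12 of 13 OS and 4 of 4 ULA libraries.

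The other pathway genes were split between the compartments. In OS organoids 22 of 67 were higher and 30 lower in COL-positive cells, where 58.1% of all genes were called. All 4 ISG15-conjugation genes and all 3 feedback inhibitors were higher there, while 5 of 6 receptor genes and 5 of 5 interferon regulatory factors were lower. In ULA organoids 15 of 64 were higher and 24 lower, near the 55.4% of all genes called there, with 5 of 6 receptor genes again lower.

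Within EPCAM-positive cells, the TGFB1 comparison gave the same 5 genes as in whole libraries, with 25% of all genes called. Markers moved inside these cells as well. Of 8 hepatocyte markers 5 were lower and 1 higher with TGFB1 (median log2 fold change -1.36). Their summed level was 5263 to 6189 CPM against 2844 to 4206 in the control. Of 5 epithelial markers 3 were higher. Summed mesenchymal markers were at 351 to 409 CPM with TGFB1 and 19.5 to 37.1 in the control. Cells with both marks made up 15.8% and 8.65% of TGFB1 and 1.93% and 5.24% of control libraries. Cells with neither made up 7.38% and 4.19%, and 44.7% and 4.91%. The part of these shifts in the result was not tested. ISG15 measured 199 and 135 CPM against 36.5 and 71.7 in the control (1.78, SE 0.325, edgeR adjusted p 0.00126). IFI6 had a log2 fold change of 1.67, MX1 of 1.82, IFIT1 of 2.26 and IFIT3 of 1.57 (edgeR adjusted p 0.0058, 0.00886, 0.0264 and 0.0311). These 4 again lost their calls without TGFB1 replicate 1 (0.87 to 1.30, edgeR adjusted p 0.0744 to 0.392) or without control replicate 1 (adjusted p 0.0544 to 0.163). Without control replicate 2 the values were higher, at 4.08 for IFIT1, 2.51 for ISG15, 2.43 for IFI6, 2.16 for MX1 and 2.13 for IFIT3, and all 5 were called. BST2 did not differ past the test (-0.11, adjusted p 0.911), at 2.34 and 1.01 CPM against 0.778 and 2.79. In COL-positive cells edgeR and DESeq2 called none of the 7, where edgeR called 0.0141% and DESeq2 0.768% of all genes. At an unadjusted p under 0.05 there was 1 of 7, about the share of all genes (13.3%). ISG15 measured 109 and 75.7 CPM there against 30.9 and 56.0 (1.23, SE 0.347, adjusted p 0.213), and passed without control replicate 2 (2.04, edgeR adjusted p 0.0106). IFIT1 rested on 4 to 6 UMIs per library in those cells, so little could be detected. The difference of the TGFB1 effect between compartments was not called for any of the 7 by edgeR (6.02% of all genes), with 0 of 7 at an unadjusted p under 0.05 (16.3% of all genes). The largest was -3.05 for IFIT1 (SE 1.43, adjusted p 0.333).

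With PA, the direction was positive in both compartments for 6 of the 7 genes. In EPCAM-positive cells edgeR and DESeq2 called none (0.114% of all genes by edgeR and 0.268% by DESeq2), with 5 of 7 at an unadjusted p under 0.05, against 2.5% of all genes. In COL-positive cells they also called none of the 7, and edgeR called 0% of all genes and DESeq2 0.127%. At an unadjusted p under 0.05 there were 5 of 7, against 4.03% of all genes (571). There IFIT1 measured 31.3 and 13.3 CPM against 4.86 and 1.83 (3.20, SE 0.895, adjusted p 0.728), and MX1 34.3 and 9.58 against 2.43 and 3.66 (2.55, SE 0.793, adjusted p 0.882). IFI6 measured 248 and 198 CPM against 82.6 and 51.2 (1.84, SE 0.594, adjusted p 1), and IFI27 8.07 and 31.7 against 2.43 and 3.96 (2.56, SE 0.618, adjusted p 0.332, and 3.11 with adjusted p 0.045 without PA replicate 1). Without PA replicate 2, IFI27 lay at 1.15 (adjusted p 1). Over the 7 alternatives IFIT1 ran from 2.03 to 3.79, MX1 from 1.5 to 3.32 and IFI6 from 1.38 to 2.15, with IFIT1 lowest without control replicate 2 and MX1 lowest without PA replicate 1, and none of the 3 was called. In the PA control these 4 genes held 1 to 168 UMIs per library. Summed hepatocyte markers in these COL-positive cells were at 2287 to 2364 CPM with PA and 1305 to 1458 in the control. Mesenchymal markers were at 2813 to 4826 and 4128 to 5492 CPM. The part of these markers in the result was not tested. The difference between compartments was not called for any of the 7 (0.0107% of all genes by edgeR), with 2 of 7 at an unadjusted p under 0.05 (3.54% of all genes), BST2 (-1.37, adjusted p 0.688) and IFI6 (1.04, adjusted p 1).

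With OA, EPCAM-positive cells gave 2 calls (35.9% of all genes). Inside these cells 6 of 8 hepatocyte markers were higher with OA and 1 was lower (median log2 fold change 2.02). Their summed level overlapped, at 15666 to 18155 CPM with OA and 15978 to 16760 in the control. The part of these markers in the result was not tested. IFI6 fell from 52.7 and 54.3 CPM to 17.0 and 14.2 (-1.54, SE 0.382, edgeR adjusted p 0.00661), and IFI27 rose from 1.96 and 1.82 to 10.4 and 6.19 (2.36, SE 0.738, edgeR adjusted p 0.0231). BST2, which fell by 5.57 in whole libraries, measured 0.240 and 0.226 CPM against 0.523 and 1.06 in these cells, or 11 to 14 UMIs in each of the 4 libraries (-1.44, SE 0.715, adjusted p 0.133). IFIT1 was likewise not called (-1.20, adjusted p 0.248). IFI6 lost its call without OA replicate 2 (-1.38, edgeR adjusted p 0.0604), and IFI27 without OA replicate 1 or either control (1.91 to 2.55, adjusted p 0.101 to 0.134). DESeq2 did not call IFI27 there either (2.39, adjusted p 0.0639), and it was called in 3 of 7 alternatives. In ULA COL-positive cells ISG15 rose from 71.4, 60.1 and 54.2 CPM on day 21 to 101 and 130 on day 34 (0.77, SE 0.178, edgeR adjusted p 0.0184), the single call of 7 (19.5% of all genes), and it did not pass without any 1 day 21 library (edgeR adjusted p 0.0584 to 0.0671). Summed epithelial markers in these cells were at 729 to 965 CPM on day 21 and 746 to 2679 on day 34. Mesenchymal markers were at 3497 to 3745 and 2885 to 4996 CPM. The part of these markers in the result was not tested. BST2 measured 47.9, 52.6 and 33.4 CPM on day 21 and 23.9 and 10.1 on day 34 (-1.50, edgeR adjusted p 0.0514), without overlap, and passed without either day 34 library (-2.30 and -1.02), with DESeq2 (-1.51, adjusted p 0.000457) and with a limit of 2 UMIs per compartment marker (-1.50, edgeR adjusted p 0.0471), or in 4 of 8 alternatives. IFIT1 passed without day 34 replicate 1 (-1.14, edgeR adjusted p 0.0304) and MX1 without day 34 replicate 2 (1.24, edgeR adjusted p 0.0275).

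IFIT1 was seen in 8 to 310 cells per library. A single cell of OA control replicate 2 held 170 ISG15 UMIs, of 2923 in that library.

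To see whether rare IFIT1-positive cells also carried other members, each cell was thinned to 4000 UMIs and shallower cells were left out. After this, 14 libraries had at least 20 IFIT1-positive cells. The share with an MX1 UMI was higher among IFIT1-positive cells than among the rest in 11 of 14 libraries, that with IFIT3 in 12, and those with ISG15 and with IFI6 in 13. In PA replicate 2, MX1 was seen in 40.6% of 143 IFIT1-positive cells (95% Clopper-Pearson interval 32.4 to 49.1, counting error only) and in 3.73% of the other 5948 cells (3.27 to 4.25). IFIT3 was seen there in 25.2% and 1.43%. Without thinning, the MX1 shares were 51.6% and 5.07%. PA replicate 1 gave 39.1% of 23 cells (19.7 to 61.5) against 3.76%, and TGFB1 replicate 1 gave 32.0% of 97 (22.9 to 42.2) against 3.50%. The 3 exceptions were ULA libraries. In day 21 replicates 1 and 2, MX1 was seen in 0 of 28 and 0 of 43 IFIT1-positive cells, against 0.430% and 0.318% of the rest. The upper ends of their 95% Clopper-Pearson intervals were 12.3% and 8.22%, and the limit taken as 3 cells of the total was 10.7% and 6.98%, both far above the share of the rest. Day 34 replicate 1 had 0 of 31 (upper end 11.2%) and day 34 replicate 2 had 13.5% of 37 against 0.400%. Thinning removed most cells of some libraries, 9260 of TGFB1 control replicate 1 and 2946 of PA control replicate 1 among them, and no cell type known to lack these genes was at hand to measure the share that free RNA gives.

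In the unthinned data 166 cells held at least 1 UMI of IFIT1, IFIT3 and MX1 together, and 67 of them came from PA replicate 2. By compartment, 88 were EPCAM-positive, 28 COL-positive, 49 had both marks and 1 neither. In untreated replicate 1, the library with the highest IFIT1 level, 14 of 26 such cells were COL-positive and 4 EPCAM-positive, in a library where 39.3% of all cells were COL-positive and 25.6% EPCAM-positive. In PA replicate 2, 47 of 67 were EPCAM-positive and 3 COL-positive, and of all its cells 73.2% were EPCAM-positive and 6.50% COL-positive. In PA replicate 1, 5 of 14 such cells were EPCAM-positive and 6 COL-positive, where 67.1% of all cells were EPCAM-positive and 5.25% COL-positive. Cells with all 3 genes were deeper than their libraries, with a median of 10458 UMIs in PA replicate 2 against 5990 over its kept cells. In PA replicate 1 the medians were 4766.5 and 2549, and in untreated replicate 1 they were 5037 and 4250.

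**Figure D5:**
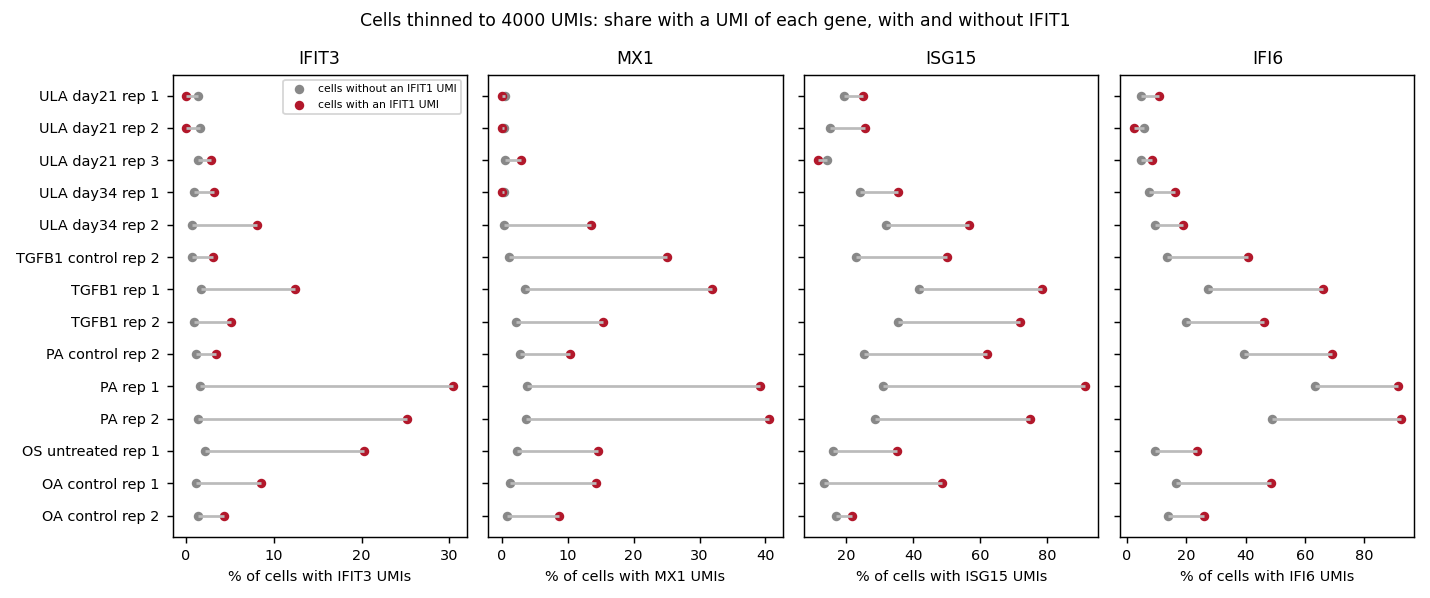
Share of cells with UMIs of IFIT3, MX1, ISG15 or IFI6 (horizontal axes, percent) among cells with an IFIT1 UMI (red) and the other cells (grey), after thinning to 4000 UMIs, in the 14 libraries with at least 20 IFIT1-positive cells. For MX1 the red point of PA replicate 2 stands at 40.6% and its grey point at 3.73%, while in 3 ULA libraries red is at 0.

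Outside the pathway lists, 11045 genes with a mean of at least 5 CPM were ranked by the Pearson correlation of their 9 group means with the mean standardized level of the 7. The 8 most alike were LAMP5 (0.79), PTRH2 (0.77), ARSG (0.75), S100A13 (0.75), KMT2E-AS1 (0.75), SAA1 (0.74), RAMP1 (0.74) and CCDC80 (0.74). S100A13 ran from 163 CPM with OA and in the TGFB1 control to 426 with PA, and SAA1, an acute-phase protein of hepatocytes, from 0.922 on ULA day 21 to 20.0 with PA. No gene reached 0.80, and the values describe 9 points that share a cell line and assay.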

How the data were processed

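Single-cell RNA was captured with 10x 3′ chemistry (version 3) in 19 libraries. The deposited matrices hold UMI counts per gene and cell, made by the authors with bcl2fastq, Cell Ranger 3.0.2 and Scanpy against GRCh38, per the submitters' processing notes. Per the file headers, the OA, OA control and untreated matrices were written by version 6.0.2 and the others by 3.0.2, so the OA experiment and the TGFB1 and PA experiments were not compared with each other by a test. The 32703 genes listed in every matrix gave the CPM totals. Of 138053 deposited barcodes, 120240 with at least 500 genes and at most 20% MT- counts were kept, and doublets were not called. UMIs were summed per library, or per library and compartment where there were at least 50 cells, and tested with edgeR 4.0.16 in R 4.3.3 (quasi-likelihood, TMM scaling, filterByExpr with a minimum count of 10), with all 14 OS libraries sharing 1 fit and the 5 ULA libraries another. Benjamini-Hochberg adjustment ran over all genes tested, and a call is an adjusted p under 0.05. Compartments were compared with the library as a block. The procedure was tested on simulated counts for TGFB1 against its control (18631 genes): it recovered 79.2% of 4-fold and 27.8% of 2-fold changes, with 4 false calls. Alternatives were DESeq2 1.42.0, total counts, no filter, a replicate block, stricter cell and compartment limits, fits of only the groups compared, and each library left out. The members and lists were chosen with earlier results of these data known. Named genes were all 7 members, ligands with any UMI, the 5 called pathway genes with the largest change per direction and whole-library comparison, and the 8 genes outside the lists most alike over group means. Other genes of the lists that the text names (IFNAR1, IFNAR2, IFNGR2, USP18, CXCL10, IFNB1 and the markers) were chosen after their values were seen. A pathway gene that the rule would name is not reported here. Tables were handled in Python 3.11.15.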

Additional observations from a re-analysis of the deposited data

How the results depend on the processing

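Over the 7 genes, 917 alternative values were computed: 784 stayed on the same side of the threshold with the same direction, 67 lost a call, 23 gained one, 43 that were called on neither side changed sign, and none of the 917 reversed a called direction. Only values of genes called in the main test could lose a call, so the 67 are not to be read as a share of 917. Counts over all genes moved too. With PA, edgeR's 9 calls became 54 with DESeq2, 16 with total counts, 162 with no filter and 16 in a fit of only the 2 groups. Between OA control and untreated organoids, 86 became 702 with DESeq2, 293 with total counts, 523 with no filter and 0 in a fit of only the 2 groups. DESeq2 gave 109 for TGFB1 in COL-positive cells, 47 for PA in EPCAM-positive cells and 18 for PA in COL-positive cells, where a limit of 2 UMIs per compartment marker gave 4. Placing cells on the side with more UMIs, chosen after seeing the data, gave 704 for the TGFB1 difference and 0 for the PA difference, which was also 0 with total counts.

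With the replicate number as a block, PA gave 4 calls, OA control against untreated 0, ULA day 34 against day 21 0, TGFB1 in COL-positive cells 18, PA in EPCAM-positive cells 3, PA in COL-positive cells 4 and ULA COL-positive cells 1391. The deviations of same-numbered libraries correlated at -0.291 for TGFB1, 0.101 for PA, 0.0328 for OA, -0.490 for OA control against untreated, and -0.194 and -0.306 for ULA, so the libraries were taken to share only a number. Under that block IFIT1 (1.88, adjusted p 0.0991) and IFIT3 (1.43, adjusted p 0.0589) lost their TGFB1 calls, and ISG15 (1.21, adjusted p 0.173) and IFI6 (0.77, adjusted p 0.204) their ULA calls, where the 3257 calls over all genes fell to 0. In EPCAM-positive cells IFIT1 (2.01, adjusted p 0.0591) and IFIT3 (1.43, adjusted p 0.054) lost the TGFB1 call, and in ULA COL-positive cells ISG15 lost its own (0.69, adjusted p 0.0713).

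Leaving out 1 library at a time gave 1703 to 5579 calls for TGFB1, 0 to 20 for PA, 5160 to 6558 for OA, 0 to 170 for OA control against untreated and 658 to 6748 for ULA. In EPCAM-positive cells the range was 1906 to 5457 for TGFB1, 0 to 35 for PA and 3259 to 4478 for OA. In COL-positive cells it was 0 to 1187 for TGFB1, 0 to 9 for PA and 1017 to 4700 for ULA. Between compartments it was 5257 to 11690 in ULA organoids, and for the differences of effects 604 to 900 with TGFB1 and 0 to 2 with PA. A group left with 1 library is assumed to vary like the others.

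Total counts in place of TMM changed the split of calls from 2096 higher and 2185 lower to 1420 and 3077 for TGFB1, from 4201 and 4176 to 2626 and 5956 for OA, and from 1785 and 1472 to 2434 and 1131 for ULA. Depth limits the low genes: IFIT1 rested on 9 UMIs in PA control replicate 1, 10 in TGFB1 control replicate 1 and 17 in OA replicate 2.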
